A study of Mus musculus with 78 samples.

Results

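The 7 genes described here belong to the tumor necrosis factor (TNF) superfamily and were read by symbol from the table of mRNA counts: the ligands Tnf, Tnfsf4 and Tnfsf11 and the receptors Tnfrsf1a, Tnfrsf1b, Tnfrsf9 and Tnfrsf11b. All 7 were found among the 52459 named genes, and all 7 were among the 18857 genes that passed a filter on low counts and were tested. The RNA came from cartilage engineered in culture, which the series title describes as chondrocytes derived from mouse induced pluripotent stem cells. Cultures had received interleukin-1 beta (IL-1beta) at 1 ng/mL or TNF-alpha at 20 ng/mL, or no cytokine (control). Each treatment was sampled at 4, 12, 24 and 72 h and the control also at 0 h, which gives 13 groups of 3 libraries named a, b and c. No genotype, strain, sex or number of cell lines is stated in the labels, and they do not say whether replicates were separate cultures, so p-values measure the spread between these libraries, which may be technical. The cytokines were given at different doses, so a difference between them is a difference between these 2 exposures.

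Ligands of the TNF superfamily are made as membrane proteins that act as trimers, and many are cut from the cell surface. Their receptors cluster on binding. Some carry a death domain, and others recruit TRAF adaptors and start nuclear factor kappa B (NF-kappaB) and MAP kinase signalling. In cartilage, TNF and IL-1 are best known for inducing matrix-degrading enzymes and inflammatory mediators in chondrocytes, and the ligand RANKL (Tnfsf11) and its decoy receptor osteoprotegerin (Tnfrsf11b) for setting how many osteoclasts form in the bone beneath. TNF-alpha in the medium was added as protein, whereas the Tnf counts are of RNA that the cultures made.

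The 38 libraries analysed held 11163263 to 68655350 counts. The column of control 0 h b was left out because it appeared out of register with the gene names. It gave Col2a1 10 counts where the other 0 h controls had 1603729 and 998568, and its highest correlation with any library was 0.189 (log2 counts). Its total of 220180 counts was also below that of every library analysed, and the cause was not tested. The 0 h control therefore has 2 libraries, and all other groups have 3. Together, 8 libraries (IL-1beta 4 h and the controls of 0 and 4 h) stood apart from the remaining 30 by at least 1 log2 unit of CPM (counts scaled to a common library size) in 12 genes, of which 10 were predicted genes and none was a member. TNF-alpha at 4 h against control at 4 h, and against IL-1beta at 4 h, spans that parting. For the first of these the comparison with control at 12 h, on the same side but at another time, is given as well. The test of whether the TNF-alpha effect differed among the 4 times holds that first comparison, so it spans the parting too. Levels in IL-1beta 4 h or in control at 0 or 4 h, set against levels in any other group, also span it. This includes the orders of groups given below.

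The chondrocyte label fitted its most abundant markers: Col2a1, the main collagen of cartilage, stood at 8640 to 123000 CPM and Acan (aggrecan) at 892 to 11300 CPM. Of the 8 markers listed, Matn1 had the lowest median, 7.69 CPM. The level of the markers moved with treatment. The summed CPM of 8 chondrocyte markers was 71800 to 95100 in control at 72 h, 33000 to 39100 after TNF-alpha and 14900 to 16100 after IL-1beta. Col2a1 made up most of it. Of 9 macrophage markers the sum was 33.8 to 37 CPM in control at 72 h, 49 to 55.6 after IL-1beta and 63.4 to 85.5 after TNF-alpha. Most of that sum was Cd68, Cd14 and Lyz2, while the defining markers Adgre1, Itgam, Fcgr1, Ptprc and Tyrobp had medians of 0.0525 to 0.314 CPM over the 38 libraries. Csf1r, also a defining marker, had a count in every library, with a median of 1.55 CPM and the highest value, 3.89 CPM, in TNF-alpha 72 h a. All 8 lymphocyte markers together reached at most 1.27 CPM, and Cd3e had no count in 25 libraries. The summed CPM of 6 osteoblast markers, mostly Col1a1, was 3860 to 4720 in control at 72 h, 3490 to 4020 after IL-1beta and 718 to 1010 after TNF-alpha. That of 7 osteoclast markers was 580 to 639, 673 to 751 and 630 to 724 at 72 h, and 806 to 893 after IL-1beta at 24 h against 600 to 721 in control. Most of it was Ctsk, and Dcstamp had no count in 22 libraries. The part of other cell types in the results on members was not tested. These are bulk samples, so fewer cells of a type and less RNA per cell cannot be told apart.

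RefSeq (GRCm38.p6) places Tnf at chr17:35199367-35202007, Tnfsf4 at chr1:161395438-161418206, Tnfsf11 at chr14:78277446-78308043, Tnfrsf1a at chr6:125349723-125362483, Tnfrsf1b at chr4:145212368-145246870, Tnfrsf9 at chr4:150920155-150946104 and Tnfrsf11b at chr15:54250619-54278484. No member overlaps another gene of that annotation. The table of promoters held windows for 5 members. Shown are the 250 bases before the start site for the 3 genes with a motif match. The windows are Tnf at chr17:35202008-35202257 (minus strand), Tnfsf11 at chr14:78308044-78308293 (minus strand) and the second listed start of Tnfrsf9 at chr4:150927749-150927998 (plus strand), each written 5′ to 3′ along the gene with motif matches in capitals.
Tnf: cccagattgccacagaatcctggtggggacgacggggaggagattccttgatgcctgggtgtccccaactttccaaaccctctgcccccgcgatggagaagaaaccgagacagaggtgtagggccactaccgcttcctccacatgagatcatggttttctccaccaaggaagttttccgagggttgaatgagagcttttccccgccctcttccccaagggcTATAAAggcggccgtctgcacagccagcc
Tnfsf11: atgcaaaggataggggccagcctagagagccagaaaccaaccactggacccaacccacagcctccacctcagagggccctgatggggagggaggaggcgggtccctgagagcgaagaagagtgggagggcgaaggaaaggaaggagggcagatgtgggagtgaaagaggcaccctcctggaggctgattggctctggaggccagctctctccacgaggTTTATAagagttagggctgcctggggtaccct
Tnfrsf9: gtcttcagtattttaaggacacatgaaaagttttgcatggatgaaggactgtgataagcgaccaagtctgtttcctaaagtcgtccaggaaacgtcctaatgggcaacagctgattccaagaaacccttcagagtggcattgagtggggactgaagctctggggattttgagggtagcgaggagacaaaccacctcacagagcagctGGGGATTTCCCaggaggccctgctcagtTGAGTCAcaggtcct

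In all 3 motifs were searched on both strands. The NF-kappaB consensus was found in the Tnfrsf9 window alone, as a pair of overlapping matches from -43 to -33 counted from the start site, and 7.25% of 32851 promoter windows of this length held it. The AP-1 motif TGANTCA was also found there alone, from -15 to -9, and 6.75% of windows held it. TATAAA stood at -29 to -24 of Tnf, along the gene, and was in 12.4% of windows. At -32 to -27 of Tnfsf11 it lay on the strand opposite to the gene, so it is printed above as TTTATA. No match was found in the windows of Tnfrsf1a, Tnfrsf1b or the first start of Tnfrsf9, which says only that these letters are not in those 250 bases.

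Differences are given as log2 fold changes ± standard error from the edgeR quasi-likelihood test, with 3 libraries in each group, and a gene was called where the Benjamini-Hochberg adjusted p over the 18857 genes was under 0.05. Levels are CPM scaled by TMM. IL-1beta, set against control libraries of its own time point, changed 5 of the 7 members at 4 h, when 32.7% of all genes were called, and all 5 rose (15.5% of all genes were called higher and 17.2% lower). It changed 6 at 12 h (background 29.6%), where 5 rose (14.5% higher) and 1 fell (15% lower), and again 6 at 24 h (32.6%), where 5 rose (17%) and 1 fell (15.6%). At 72 h it changed 5 (38.9%), 4 of which rose (19.3%) and 1 fell (19.7%). TNF-alpha changed 5 members at 4 h (21.5%), 4 up (10.9%) and 1 down (10.6%), and 5 at 12 h (28.4%), 4 up (14.6%) and 1 down (13.8%). At 24 h it changed 4 members (25%), all up (13.2% of all genes higher, 11.9% lower), and so it did at 72 h (36%, with 17.8% higher and 18.3% lower). TNF-alpha at 4 h against control at 12 h gave 5 members, all up (26.2%, with 13.4% higher and 12.7% lower). Over the 8 comparisons of a cytokine with control of the same time, Tnfrsf1b was called higher in all 8, Tnf and Tnfrsf9 in 7, Tnfsf4 in 6, Tnfsf11 in 5 and Tnfrsf1a in 2, with Tnfrsf1a also called lower in 2. Tnfrsf11b was called lower in 3 and higher in none.

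**Figure D1:**
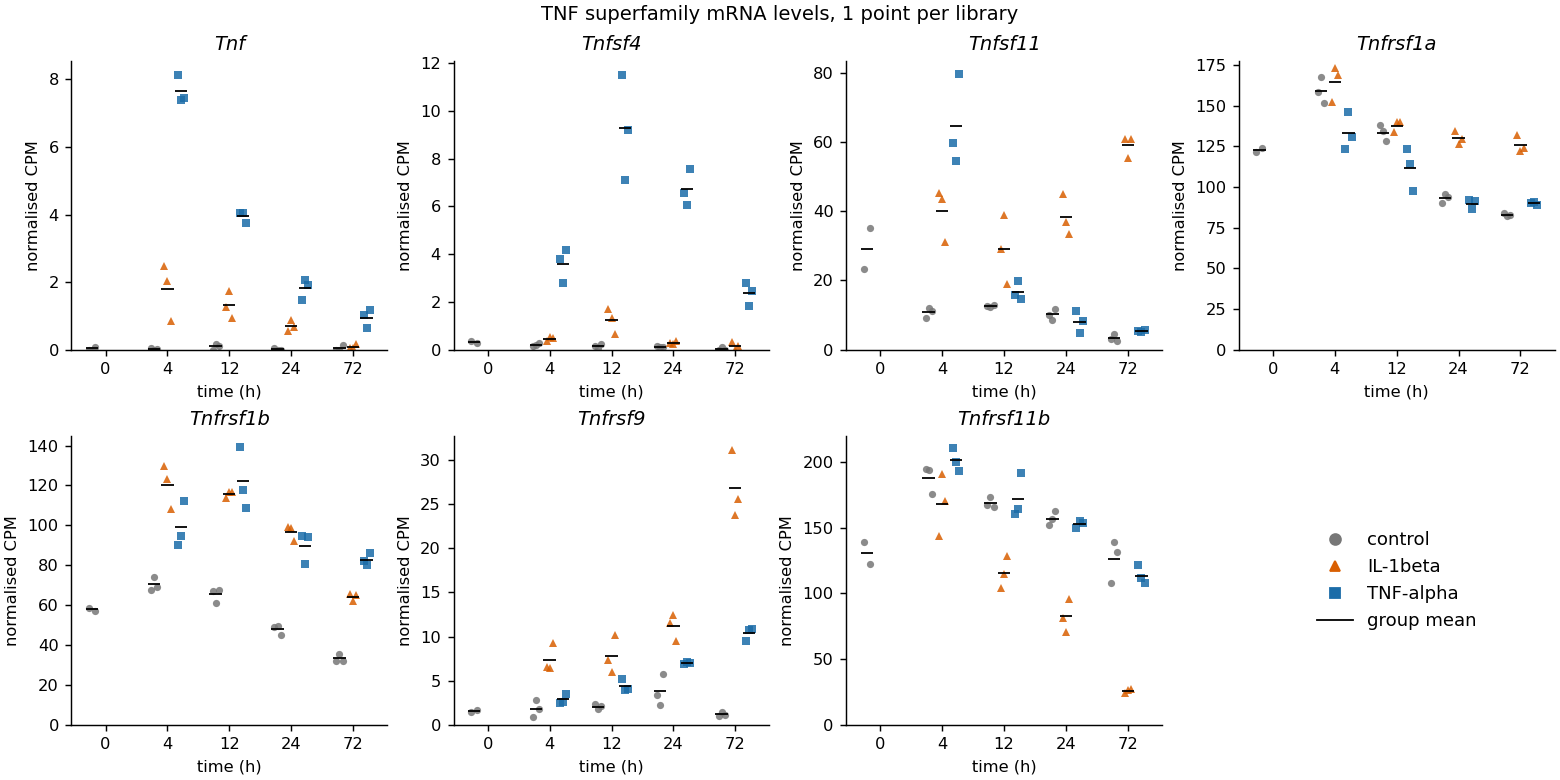
Normalised CPM of the 7 members (vertical axes, linear from 0, a separate scale for each gene) by time (horizontal axis, evenly spaced labels in h); each point is 1 library, grey circles are controls, orange triangles IL-1beta, blue squares TNF-alpha, and bars are group means. Tnf and Tnfsf4 stood highest with TNF-alpha, Tnfsf11 at 72 h and Tnfrsf9 with IL-1beta, and Tnfrsf11b at 72 h lowest with IL-1beta.

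Tnf encodes TNF itself. It was almost absent from the controls: the 14 control libraries held 12 Tnf counts in all, and 7 of them held none. With TNF-alpha the 4 h libraries a, b and c stood at 8.14, 7.38 and 7.45 CPM, the 12 h libraries at 4.05, 4.05 and 3.75, those at 24 h at 1.47, 2.07 and 1.92, and those at 72 h at 1.03, 0.649 and 1.17. All 12 were above every control, and the level was highest at 4 h and lowest at 72 h. With IL-1beta the values were 2.47, 2.03 and 0.862 CPM after 4 h, 1.26, 1.75 and 0.942 after 12 h, and 0.553, 0.872 and 0.663 after 24 h. At 72 h they were 0.0602, 0.0462 and 0.171 CPM, within the range of the controls (0 to 0.181).

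Because the controls held so few Tnf counts, folds are given as ratios of normalised counts with a 95% counting interval where a control group had 3 counts or fewer. At 4 h the ratio to control was 276 (93.4 to 1340) after TNF-alpha and 70.1 (23.6 to 343) after IL-1beta. At 24 h it was 105 (18.6 to 4190) and 39.1 (6.74 to 1570). At 72 h it was 26.1 (6.97 to 219) with TNF-alpha, whereas the IL-1beta ratio of 2.82 (0.504 to 28.6) had an interval that includes 1. The 12 h controls held 5 counts, and there the fitted changes were 5.32 ± 0.47 with TNF-alpha (adjusted p = 3.45e-11) and 3.76 ± 0.58 with IL-1beta (adjusted p = 3.18e-06). Single control libraries move these folds. Without control 12 h a or b the 12 h changes ranged from 4.67 to 6.07 and from 3.10 to 4.5, without control 24 h a the 24 h changes became 8.35 and 6.94, and without control 72 h b or c the TNF-alpha change at 72 h ranged from 3.93 to 7.35. Each remained called.

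The contrast of the 2 cytokines rests on more Tnf counts, except at 72 h, where the IL-1beta libraries held 6. The IL-1beta effect on Tnf was lower at 72 h than at 4 h by -4.47 ± 1.86, which was not called (adjusted p = 0.0666) but was with DESeq2 (0.0108) and without any of 4 single libraries (IL-1beta 4 h c, control 72 h a or b, IL-1beta 72 h c, down to 0.0372). Without control 72 h c it was -1.65 (0.866). Tnf was higher with TNF-alpha than with IL-1beta by 2.02 ± 0.26 at 4 h (adjusted p = 4.61e-07), 1.56 ± 0.30 at 12 h (0.000468), 1.41 ± 0.31 at 24 h (0.00075) and 3.17 ± 0.55 at 72 h (1.21e-05), with no overlap between the groups at any time. Without IL-1beta 72 h c the last value was 3.99, still called. Against control at 12 h, Tnf at 4 h of TNF-alpha was higher by 6.28 ± 0.44 (adjusted p = 1.05e-13). In the order of the 13 groups, 3 of 12 neighbouring pairs did not overlap: TNF-alpha 4 h above TNF-alpha 12 h, TNF-alpha 12 h above TNF-alpha 24 h, and IL-1beta 24 h above control 12 h.

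Tnfsf4 encodes OX40 ligand, a costimulatory ligand that antigen-presenting cells show to activated T cells. It rose with TNF-alpha at all 4 times, with its highest mean at 12 h. The control libraries stood at 0 to 0.357 CPM with 48 counts in all. With TNF-alpha libraries a, b and c had 3.79, 2.80 and 4.17 CPM after 4 h, 11.5, 7.08 and 9.19 after 12 h, 6.54, 6.04 and 7.58 after 24 h, and 2.78, 1.84 and 2.46 after 72 h. All 12 were above every control, and at 12 h and 24 h they overlapped.

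With IL-1beta, Tnfsf4 was low throughout: 0.344, 0.524 and 0.470 CPM after 4 h, 1.71, 1.31 and 0.652 after 12 h, 0.258, 0.218 and 0.379 after 24 h, and 0.301, 0 and 0.171 after 72 h. Of these 12 libraries 6 were above every control. The changes against control were 1.25 ± 0.45 at 4 h (adjusted p = 0.0292), 2.97 ± 0.53 at 12 h (2.97e-05) and 1.22 ± 0.65 at 24 h (0.156). The 4 h call is fragile: it was lost without control 4 h a, control 4 h b or IL-1beta 4 h b, with log2 values of 1.01 to 1.55 and an adjusted p of up to 0.252 when single libraries were left out. At 72 h the control group held 2 Tnfsf4 counts and the IL-1beta group 9, a ratio of 4.23 with an interval of 0.875 to 40.2. That difference was not called (adjusted p = 0.145), but was when control 72 h b or IL-1beta 72 h b was left out.

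With TNF-alpha the changes of Tnfsf4 against control were 4.15 ± 0.35 at 4 h, 5.92 ± 0.37 at 12 h and 5.71 ± 0.38 at 24 h, with adjusted p of 1.21e-11, 5.33e-15 and 3.44e-14. At 72 h the ratio of normalised counts was 65.8 (18 to 547). The fitted change there was 5.86 ± 0.56 and rose to 8.69 without control 72 h b, the single control of that time with any Tnfsf4 count. TNF-alpha exceeded IL-1beta by 2.90 ± 0.32, 2.94 ± 0.27, 4.5 ± 0.30 and 3.93 ± 0.42 at the 4 times (adjusted p from 5.4e-14 to 3.01e-08), with all libraries apart. At 72 h that difference ranged from 3.33 to 4.62 without IL-1beta 72 h a or b. In the order of groups 5 of 12 neighbouring pairs did not overlap: TNF-alpha 24 h above 4 h, 4 h above 72 h, TNF-alpha 72 h above IL-1beta 12 h, IL-1beta 12 h above IL-1beta 4 h, and control 24 h above control 72 h.

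Tnfsf11 encodes RANKL, the ligand that drives osteoclast formation and is made in cartilage and bone by mesenchymal cells. Unlike Tnf it had clear counts in every library, and it fell in the controls over time. Control libraries had 23.3 and 35.2 CPM at 0 h, 9.13, 12 and 11.2 after 4 h, 12.5, 12.4 and 13 after 12 h, 10.1, 8.63 and 11.8 after 24 h, and 2.98, 4.47 and 2.60 after 72 h. From 0 to 4 h the control level changed by -1.44 ± 0.24 (adjusted p = 3.45e-05) and from 12 to 72 h by -1.89 ± 0.28 (1.94e-06). The 0 h controls were the highest, and the 72 h controls overlapped no other group.

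With IL-1beta, Tnfsf11 stood at 45.2, 43.5 and 31.2 CPM after 4 h, 29.1, 39 and 19.1 after 12 h, 45.0, 36.8 and 33.5 after 24 h, and 60.9, 55.3 and 61.0 after 72 h. Every group was above its control. The changes were 1.91 ± 0.21 at 4 h (adjusted p = 4.99e-09), 1.21 ± 0.23 at 12 h (6.55e-05), 1.91 ± 0.22 at 24 h (9.49e-09) and 4.11 ± 0.26 at 72 h (1.28e-15), the last a 17.3-fold difference. At 72 h the controls were at their lowest, while the IL-1beta libraries were above those of 4 h, a comparison of levels that spans the parting of libraries. The IL-1beta effect at 72 h exceeded that at 4 h by 2.20 ± 0.34 (adjusted p = 2.94e-06).

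With TNF-alpha the course of Tnfsf11 was brief. Its libraries stood at 59.7, 54.5 and 79.6 CPM after 4 h, 15.7, 19.9 and 14.6 after 12 h, 11.3, 4.74 and 8.21 after 24 h, and 5.42, 4.98 and 5.79 after 72 h. The change was 2.59 ± 0.21 at 4 h (adjusted p = 8.04e-12), and 2.35 ± 0.22 against control at 12 h (2.02e-10). At 12, 24 and 72 h it was 0.40 ± 0.23, -0.35 ± 0.24 and 0.66 ± 0.30, none of which was called (adjusted p = 0.213, 0.313 and 0.0846). Whether these values were called depended on the setting: without the low-count filter all 3 were called (0.00202, 0.0408 and 3.16e-05), with only the libraries compared those of 12 and 72 h were (0.0375 and 0.0148), and at 72 h the call was also gained with library totals (0.0441) and without control 72 h b (0.0410).

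By group means the 2 cytokines changed order for Tnfsf11 after 4 h, but the 4 h comparison between them spans the parting of libraries. TNF-alpha minus IL-1beta was 0.68 ± 0.20 at 4 h (adjusted p = 0.0188), -0.81 ± 0.22 at 12 h (0.0129), -2.27 ± 0.22 at 24 h (3.38e-10) and -3.46 ± 0.23 at 72 h (1e-14). The first 2 of these rest on single libraries. At 4 h the call was lost without TNF-alpha 4 h c or IL-1beta 4 h c (adjusted p up to 0.153) and with the DESeq2 Wald test (0.0501). At 12 h, where the groups overlapped, it was lost without TNF-alpha 12 h a or c or IL-1beta 12 h b (up to 0.195) and with only the libraries compared (0.0617). In the order of groups 4 of 12 neighbouring pairs did not overlap: IL-1beta 72 h above IL-1beta 4 h, TNF-alpha 12 h above control 12 h, control 12 h above control 4 h, and TNF-alpha 72 h above control 72 h.

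Tnfrsf1a encodes TNF receptor 1, which carries a death domain and is found on most cell types. It was expressed in every library at 82.3 to 173 CPM, and its called changes against control were all at most 0.60 in size. Controls had 121 and 124 CPM at 0 h, 158, 167 and 151 after 4 h, 138, 134 and 128 after 12 h, 90.1, 95.9 and 94.0 after 24 h, and 84.1, 82.3 and 82.7 after 72 h. From 12 to 24 h the control changed by -0.52 ± 0.07 (adjusted p = 9.4e-07) and from 12 to 72 h by -0.68 ± 0.07 (4.29e-10). The level was also higher at 4 h than at 0 h, by 0.37 ± 0.07 (0.000305).

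With IL-1beta Tnfrsf1a also stood lower at 72 h than at 4 h. The IL-1beta libraries had 152, 173 and 169 CPM after 4 h, 134, 139.9 and 139.7 after 12 h, 134, 126 and 129 after 24 h, and 132, 122 and 124 after 72 h. Against control the change was 0.05 ± 0.06 at 4 h and 0.05 ± 0.07 at 12 h (not called, with 95% intervals of -0.07 to 0.18 and -0.08 to 0.17). It was 0.48 ± 0.07 at 24 h (adjusted p = 2.87e-07) and 0.60 ± 0.07 at 72 h (1.87e-09), a 1.52-fold difference with no overlap. The effect at 72 h exceeded that at 4 h by 0.55 ± 0.09 (1.34e-05).

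With TNF-alpha, Tnfrsf1a was slightly lower early. Libraries a, b and c had 123, 146 and 131 CPM after 4 h, 124, 114 and 97.3 after 12 h, 91.8, 86.6 and 91.1 after 24 h, and 90.4, 90.9 and 89.2 after 72 h. The changes were -0.25 ± 0.06 at 4 h (adjusted p = 0.00400), -0.26 ± 0.07 at 12 h (0.00267), -0.06 ± 0.07 at 24 h and 0.12 ± 0.07 at 72 h (0.586 and 0.164). The 4 h call was lost without TNF-alpha 4 h a (0.0520), and against control at 12 h the difference was -0.0030 ± 0.07 (0.98). The 12 h call was lost without TNF-alpha 12 h c (0.0517) and with only the libraries compared (0.0878), and the 72 h difference was called with library totals (0.23, adjusted p = 0.00789). Between the cytokines Tnfrsf1a was lower with TNF-alpha at all 4 times, by -0.31 ± 0.07, -0.30 ± 0.07, -0.53 ± 0.06 and -0.48 ± 0.06 (adjusted p = 0.00105, 0.00159, 4.46e-08 and 1.63e-07), with all libraries apart. The 12 h difference was not called with only the libraries compared (0.0824). Ordered by mean, 3 of 12 neighbouring groups did not overlap: control 4 h above IL-1beta 12 h, TNF-alpha 12 h above control 24 h, and TNF-alpha 24 h above control 72 h.

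Tnfrsf1b encodes TNF receptor 2, which has no death domain and binds TRAF2 directly. It was higher with both cytokines at all 4 times. Controls had 58.6 and 57.2 CPM at 0 h, 67.8, 74.2 and 69.0 after 4 h, 67.2, 61.2 and 67.7 after 12 h, 48.9, 49.3 and 45.1 after 24 h, and 31.9, 35.6 and 32.2 after 72 h. Against 12 h the control was lower by 24 h (-0.45 ± 0.08, adjusted p = 0.000153) and by 72 h (-0.97 ± 0.08, 4.19e-11).

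With IL-1beta, Tnfrsf1b stood at 129.7, 123 and 108 CPM after 4 h, 114, 117 and 117 after 12 h, 99.2, 98.6 and 91.9 after 24 h, and 65.3, 62.3 and 65.2 after 72 h. With TNF-alpha it stood at 90.2, 94.4 and 112 CPM after 4 h, 139, 118 and 109 after 12 h, 94.5, 80.8 and 94.1 after 24 h, and 82.1, 80.3 and 86.1 after 72 h. No cytokine group overlapped the control of its time, and all 12 TNF-alpha libraries and 9 of the 12 IL-1beta libraries were above every control of any time.

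The changes of Tnfrsf1b with IL-1beta were 0.78 ± 0.08, 0.82 ± 0.08, 1.02 ± 0.08 and 0.95 ± 0.08 at 4, 12, 24 and 72 h, with adjusted p from 1.95e-12 to 8.71e-10. Whether they differed among the times was not called (adjusted p = 0.253). With TNF-alpha they were 0.49 ± 0.08, 0.90 ± 0.08, 0.91 ± 0.08 and 1.32 ± 0.08, with adjusted p from 5.14e-15 to 1.5e-05, and here they differed among the times (2.45e-05). That test holds the 4 h comparison, which spans the parting of libraries. At 4 h of TNF-alpha the difference from control at 12 h was 0.60 ± 0.08 (6.17e-07). Between the cytokines the difference was -0.28 ± 0.08 at 4 h (0.0144), 0.08 ± 0.08 at 12 h, -0.11 ± 0.08 at 24 h (0.627 and 0.417, with 95% intervals of -0.08 to 0.23 and -0.26 to 0.05) and 0.37 ± 0.08 at 72 h (0.000324). The 4 h groups overlapped, and that call was lost without TNF-alpha 4 h a or b or IL-1beta 4 h a (up to 0.107), with library totals (0.0583) and with only the libraries compared (0.0710). Ranked by mean, 6 of 12 neighbouring groups did not overlap: IL-1beta 12 h above TNF-alpha 4 h, TNF-alpha 72 h above control 4 h, control 4 h above control 12 h, IL-1beta 72 h above control 0 h, control 0 h above control 24 h, and control 24 h above control 72 h.

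Tnfrsf9 encodes CD137, a costimulatory receptor best known on activated T cells. Its level was low in the controls and rose most with IL-1beta at 72 h. Controls had 1.49 and 1.70 CPM at 0 h, 0.896, 2.81 and 1.76 after 4 h, 2.29, 1.81 and 2.07 after 12 h, 3.35, 2.21 and 5.74 after 24 h, and 0.978, 1.46 and 1.05 after 72 h. The 24 h controls were the most uneven. Against 12 h they were higher by 0.86 ± 0.30 (adjusted p = 0.0387), a call that was lost without any of 5 of the 6 libraries concerned (all but control 24 h b).

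With IL-1beta, Tnfrsf9 stood at 6.54, 6.39 and 9.25 CPM after 4 h, 7.30, 5.93 and 10.1 after 12 h, 11.5, 12.5 and 9.50 after 24 h, and 31.2, 23.8 and 25.6 after 72 h. All 12 libraries were above every control. The changes were 2.06 ± 0.26, 1.90 ± 0.29, 1.56 ± 0.24 and 4.51 ± 0.28 at the 4 times, with adjusted p of 7.22e-08, 2.23e-06, 2.41e-06 and 1.1e-15. The last is a 22.8-fold difference, and the effect at 72 h exceeded that at 4 h by 2.45 ± 0.40 (1.01e-05).

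With TNF-alpha, Tnfrsf9 stood at 2.48, 2.58 and 3.53 CPM after 4 h, 5.18, 3.91 and 4.03 after 12 h, 6.93, 7.11 and 6.95 after 24 h, and 9.52, 10.8 and 10.8 after 72 h. The change was 0.73 ± 0.32 at 4 h (not called, adjusted p = 0.0974, groups overlapping), 1.08 ± 0.30 at 12 h (0.00578), 0.89 ± 0.25 at 24 h (0.00631) and 3.14 ± 0.29 at 72 h (6.57e-11). The 4 h difference was called without control 4 h b (0.0107) and without the low-count filter (0.00865), and was 0.46 ± 0.34 against control at 12 h (0.348). The 24 h call was lost without control 24 h b (0.0842). From 12 to 72 h the TNF-alpha effect grew by 2.06 ± 0.44 (0.00181).

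Tnfrsf9 was lower with TNF-alpha than with IL-1beta at every time, by -1.33 ± 0.28, -0.82 ± 0.26, -0.67 ± 0.21 and -1.37 ± 0.20 (adjusted p = 0.000886, 0.0352, 0.0221 and 1.03e-06), and the groups did not overlap. The 12 h call was lost without TNF-alpha 12 h b or c or IL-1beta 12 h a or c (up to 0.263) and with only the libraries compared (0.0525), and the 24 h call without any of 5 of the 6 libraries (all but IL-1beta 24 h c, up to 0.0952). Among groups ranked by mean, 4 of 12 neighbours did not overlap: IL-1beta 72 h above IL-1beta 24 h, TNF-alpha 24 h above TNF-alpha 12 h, TNF-alpha 4 h above control 12 h, and control 0 h above control 72 h.

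Tnfrsf11b encodes osteoprotegerin, a secreted decoy receptor that binds RANKL. It was the sole member to fall with IL-1beta, and it was not called with TNF-alpha at any time. Controls had 139 and 122 CPM at 0 h, 195, 193 and 175 after 4 h, 167, 173 and 166 after 12 h, 152, 156 and 162 after 24 h, and 108, 139 and 131 after 72 h. The level rose from 0 to 4 h by 0.52 ± 0.11 (adjusted p = 0.000671) and was lower at 72 h than at 12 h by -0.42 ± 0.10 (0.000793).

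With IL-1beta, Tnfrsf11b stood at 143, 190.4 and 170.2 CPM after 4 h, 104, 114 and 128 after 12 h, 80.9, 70.6 and 95.7 after 24 h, and 24.3, 26.2 and 27.4 after 72 h. From 12 h on the groups lay below their controls, and 7 of the 12 libraries were below every control of any time. The changes were -0.16 ± 0.10 at 4 h (adjusted p = 0.216), -0.55 ± 0.10 at 12 h (3.63e-05), -0.93 ± 0.10 at 24 h (1.32e-09) and -2.28 ± 0.11 at 72 h (6.18e-19). The 4 h difference was called with library totals (-0.25, 0.0378), where the median of all genes shifted by -0.101. The IL-1beta effect differed among the 4 times (1.93e-13), and at 72 h it was lower than at 4 h by -2.12 ± 0.14 (5.87e-14).

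With TNF-alpha, Tnfrsf11b stood at 210.2, 199.6 and 193 CPM after 4 h, 160.1, 164 and 192 after 12 h, 149, 155 and 153 after 24 h, and 121, 111 and 108 after 72 h, overlapping the control at each time. The differences were 0.10 ± 0.10, 0.03 ± 0.10, -0.04 ± 0.10 and -0.15 ± 0.10, with 95% intervals of -0.09 to 0.29, -0.16 to 0.22, -0.23 to 0.15 and -0.34 to 0.04. Against control at 12 h, TNF-alpha at 4 h was higher by 0.25 ± 0.10 (adjusted p = 0.0487). TNF-alpha exceeded IL-1beta by 0.26 ± 0.10 at 4 h (not called, 0.0801), 0.58 ± 0.10 at 12 h (7.9e-05), 0.89 ± 0.10 at 24 h (5.3e-09) and 2.12 ± 0.11 at 72 h (3.87e-18). The 4 h difference was called with library totals (0.0282) and without IL-1beta 4 h b (0.0329). In the order of groups 3 of 12 neighbouring pairs did not overlap: TNF-alpha 24 h above control 0 h, TNF-alpha 72 h above IL-1beta 24 h, and IL-1beta 24 h above IL-1beta 72 h.

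**Figure D2:**
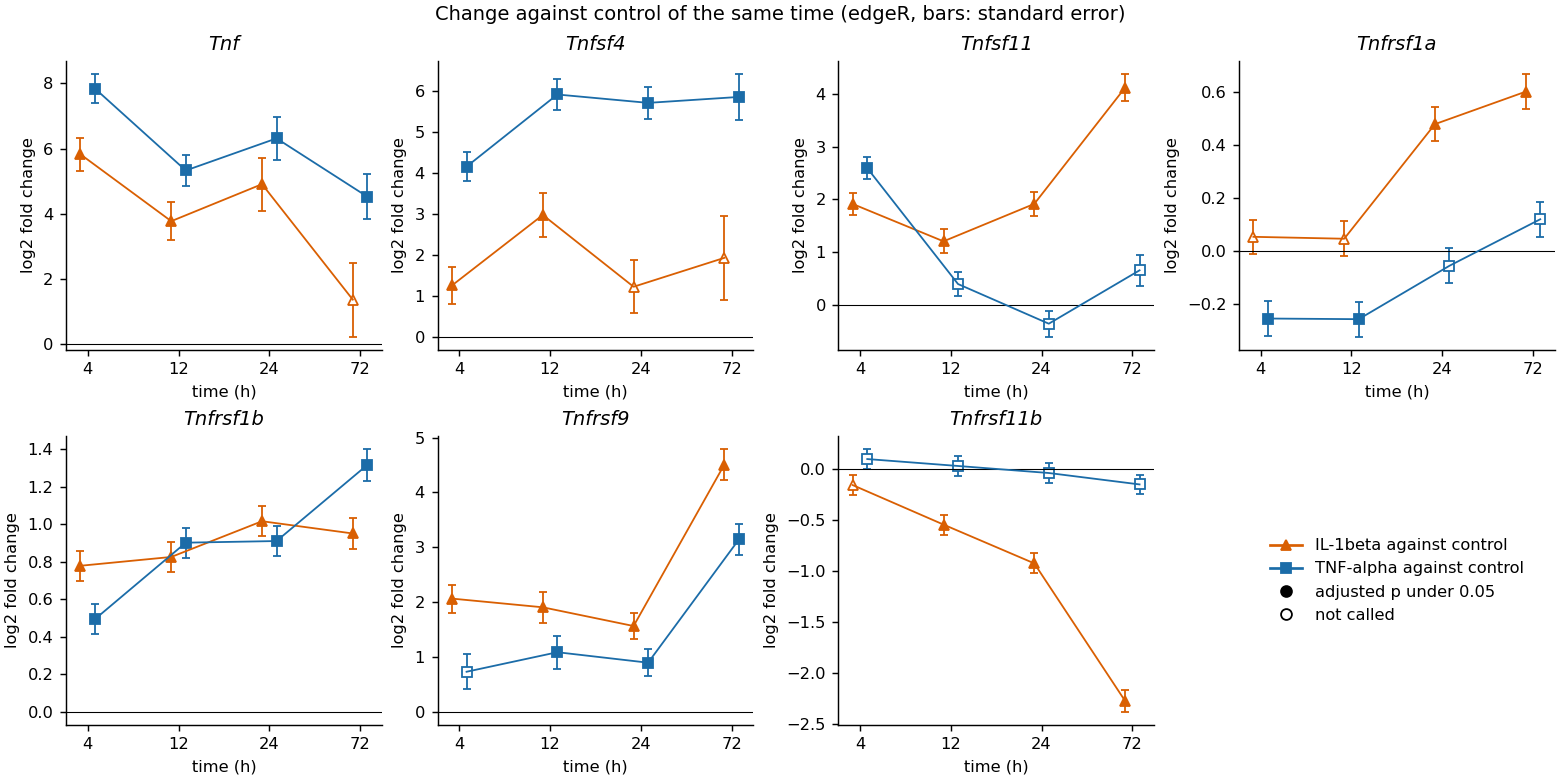
Log2 fold change of each member against the control of the same time (vertical axes, separate scales) at 4, 12, 24 and 72 h (horizontal axis, evenly spaced); orange triangles are IL-1beta, blue squares TNF-alpha, bars are standard errors from edgeR, and open symbols did not pass an adjusted p of 0.05. Tnfrsf11b reached -2.28 with IL-1beta and stayed between -0.15 and 0.10 with TNF-alpha, while Tnf and Tnfsf4 were higher with TNF-alpha at each time.

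Set against each other, the cytokines differed in 6 of the 7 members at 4 h (12.4% of all genes called), 3 of them higher with TNF-alpha (6.66%) and 3 lower (5.71%). The same counts were found at 12 h (10.6% called, 5.88% higher, 4.7% lower) and at 24 h (20.1% called, 10.8% higher, 9.31% lower). At 72 h all 7 differed (39.8%), 4 higher (20.4%) and 3 lower (19.4%). Tnf and Tnfsf4 were higher with TNF-alpha at all 4 times, and Tnfrsf1a and Tnfrsf9 were higher with IL-1beta at all 4. An interaction test asked whether an effect changed over the 4 times. For IL-1beta it did for 4 members (38.7% of all genes), with adjusted p of 1.52e-07 for Tnfsf11, 2.21e-06 for Tnfrsf1a, 5.29e-07 for Tnfrsf9 and 1.93e-13 for Tnfrsf11b. For TNF-alpha it did for 4 members (19.2%), with 6.17e-08 for Tnfsf11, 0.00543 for Tnfrsf1a, 2.45e-05 for Tnfrsf1b and 9.46e-05 for Tnfrsf9. The TNF-alpha test holds the 4 h comparison, which spans the parting of libraries, and the part this plays was not tested. Between 4 and 72 h the IL-1beta effect changed for 4 members (30.6%), 3 upward (15.7%) and 1 downward (15%). Between 12 and 72 h the TNF-alpha effect changed for 3, all upward (8.54%, with 3.64% higher and 4.9% lower): Tnfrsf1a by 0.38 ± 0.09, Tnfrsf1b by 0.41 ± 0.12 and Tnfrsf9 by 2.06 ± 0.44. The Tnfrsf1b value lost its call without any of 6 libraries (control 12 h a or c, TNF-alpha 12 h b or c, control 72 h a or c, adjusted p up to 0.0758). With only the libraries compared, Tnfrsf1a (0.0568) and Tnfrsf1b (0.0617) were not called.

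The controls alone changed as well. Of the 7 members 4 differed at 4 h from 0 h (20.4% of all genes), 3 higher (10.2%) and 1 lower (10.2%). At 24 h 3 differed from 12 h (21.7%), 1 higher (10.2%) and 2 lower (11.5%), and at 72 h 4 differed from 12 h (37.1%), 0 higher (18.7%) and 4 lower (18.3%). At 72 h Tnfsf11, Tnfrsf1a, Tnfrsf1b and Tnfrsf11b were all lower than at 12 h. The rise of Tnfrsf1b from 0 to 4 h (0.28 ± 0.09, adjusted p = 0.0274) was lost without control 0 h a or c or control 4 h b (up to 0.185). Tnfrsf9 at 72 h against 12 h was not called (-0.82 ± 0.37, 0.0799), but was without the low-count filter (0.00533), with only the libraries compared (0.0181) and with DESeq2 (0.0391). Tnf and Tnfsf4 were not called between control times, where their groups held 1 to 21 counts, except that Tnfsf4 at 72 h against 12 h was called without control 72 h b (0.0431).

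RANKL and osteoprotegerin are usually read as a ratio. The log2 ratio of Tnfsf11 to Tnfrsf11b CPM in control was -4.12 ± 0.25 (SD, n = 3) at 4 h, -3.72 ± 0.07 at 12 h, -3.94 ± 0.20 at 24 h and -5.22 ± 0.35 at 72 h. With IL-1beta it was -2.08 ± 0.39, -2.04 ± 0.62, -1.10 ± 0.36 and 1.18 ± 0.13 (SD, n = 3 each). The control libraries of 0 h, a and c, stood higher than the later controls, at -2.57 and -1.80. Both lay within the range of the IL-1beta libraries at 12 h (-2.74 to -1.55). The difference of IL-1beta from control of the same time was 2.04, 1.68, 2.85 and 6.41, the last an 84.9-fold change. No IL-1beta group overlapped the control of its time. In an exact 2-sided permutation test each gave p = 0.1, the smallest that 3 against 3 libraries allow, and 0.114 after adjustment over 16 comparisons of ratios.

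At 72 h of IL-1beta the ratio was above 0 in all 3 libraries (1.32, 1.08 and 1.15), and in every other library of the series it was below. Per kilobase of gene length as the table gives it, Tnfsf11 stood at 26.4 ± 1.44 CPM (SD, n = 3) and Tnfrsf11b at 9.21 ± 0.56, whereas in control at 72 h the levels per kilobase were 1.5 ± 0.441 and 44.7 ± 5.73. With TNF-alpha the log2 ratio was -1.65 ± 0.33 at 4 h, 2.46 above control with no overlap (exact permutation p = 0.1). At 12 and 24 h the groups overlapped (0.36 and -0.36, exact permutation p = 0.2 and 0.6), and at 72 h the ratio was 0.85 above control without overlap (0.1).

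The ratio of the receptors of TNF moved in 1 direction with both cytokines. The log2 ratio of Tnfrsf1b to Tnfrsf1a in control was -1.18 ± 0.05 (SD, n = 3) at 4 h, -1.03 ± 0.10 at 12 h, -0.97 ± 0.09 at 24 h and -1.32 ± 0.10 at 72 h. IL-1beta groups were above these by 0.72, 0.78, 0.54 and 0.35, and TNF-alpha groups by 0.74, 1.16, 0.96 and 1.20. None of the 8 overlapped its control, with the smallest possible exact permutation p of 0.1 for each (0.114 adjusted over 16).

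**Figure D3:**
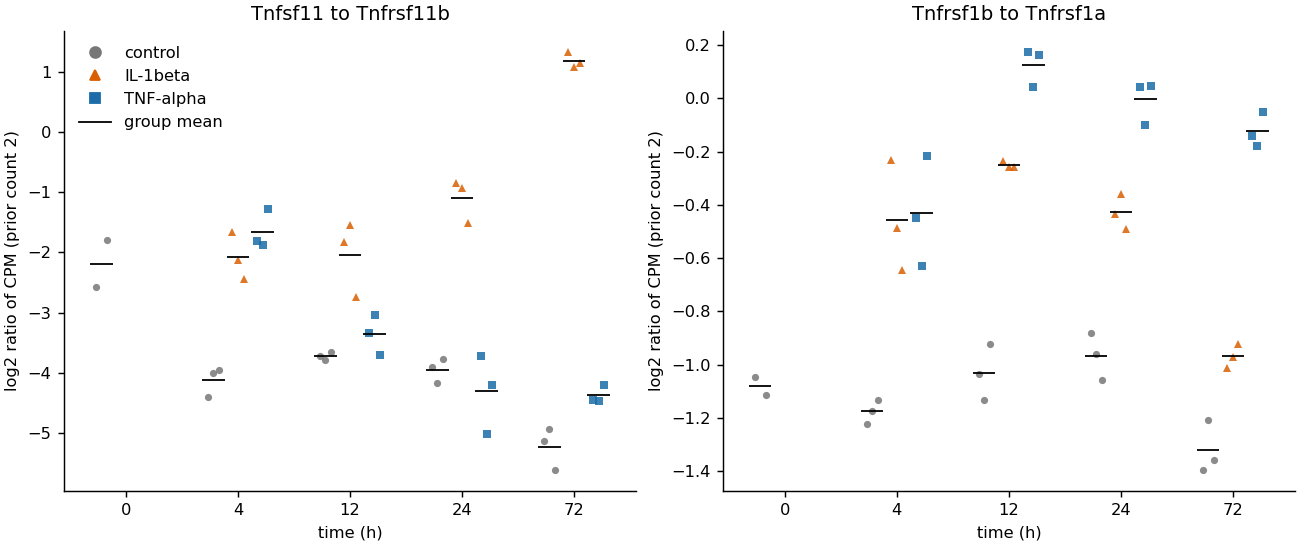
Log2 ratio of CPM per library (vertical axes, prior count 2) of Tnfsf11 to Tnfrsf11b (left) and Tnfrsf1b to Tnfrsf1a (right) by time (horizontal axis, evenly spaced labels in h); symbols are as in the plot of levels and bars are group means. On the left the 3 IL-1beta libraries at 72 h lie at 1.08 to 1.32 and every other library below 0, and on the right no cytokine group overlaps its control.

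For each member the 3 genes of most similar pattern were found by Pearson's r over the 13 group means of log2 CPM, among 12412 other genes. The points share libraries and times, so r is a description. They were Nlrp3 (0.985), Ptpre (0.966) and Plau (0.965) for Tnf, and Ankrd33b (0.979), Adam19 (0.975) and Pdlim1 (0.959) for Tnfsf4. For Tnfsf11 they were Il13ra1 (0.919), Stk24 (0.919) and Alcam (0.908). The receptors gave Ier3 (0.959), Ell (0.949) and Cables2 (0.943) for Tnfrsf1a, Polr1a (0.989), Rbm19 (0.969) and Tgif1 (0.968) for Tnfrsf1b, and Camp (0.966), C1qtnf7 (0.961) and Saa3 (0.952) for Tnfrsf9. For Tnfrsf11b they were Timp3 (0.968), Insig1 (0.962) and Fxyd6 (0.962).

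Among the 15 other ligands of the superfamily 9 passed the filter; Lta, Ltb, Cd40lg, Fasl, Cd70 and Tnfsf18 did not. At 72 h 5 of the 9 rose with IL-1beta and none fell (19.3% of all genes higher, 19.7% lower), with a median log2 change of 1.05 against 0.0034 over all genes. With TNF-alpha 1 rose and 2 fell (17.8% and 18.3% of all genes; median 0.128 against -0.00801). Tnfsf15, or TL1A, a ligand of death receptor 3, went from 0.755 ± 0.311 CPM (SD, n = 3) in control to 21.0 ± 5.01 with IL-1beta, a change of 4.83 ± 0.27 (adjusted p = 1.06e-16). Its rise with TNF-alpha (1.12 ± 0.36, 0.0128) was lost without control 72 h a or b or TNF-alpha 72 h a. Tnfsf8, the CD30 ligand, rose with IL-1beta by 3.78 ± 0.61 (4.4e-06) from 7 counts in control to 107. Eda (ectodysplasin) rose with IL-1beta by 0.63 ± 0.13.

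Tnfsf9, the ligand of CD137, went in opposite directions. It rose with IL-1beta by 0.94 ± 0.17 (adjusted p = 1.97e-05) and fell with TNF-alpha by 1.08 on the log2 scale (± 0.19, 1.94e-05), a difference between the cytokines of -2.03 ± 0.18. Tnfsf14, known as LIGHT, held 28 counts in control at 72 h, 129 with IL-1beta (a rise of 2.11 ± 0.45, adjusted p = 0.000284) and 1 with TNF-alpha. The ratio of TNF-alpha to control was 0.0245 with a counting interval of 0.000599 to 0.148. With IL-1beta the direction was opposite at 4 h, where Tnfsf14 held 31 counts in control and 2 with IL-1beta. That ratio was 0.0762, with a counting interval of 0.00883 to 0.299.

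Of 24 other receptors of the superfamily 19 passed the filter. At 72 h 7 rose and 3 fell with IL-1beta (19.3% and 19.7% of all genes), with a median of 0.296 against 0.0034 over all genes. With TNF-alpha 7 rose and 2 fell (17.8% and 18.3%), with a median of 0.266 against -0.00801. Fas, the death receptor for Fas ligand, rose with both, by 1.89 ± 0.16 and 1.59 ± 0.16, from 13.3 ± 1.55 CPM in control to 49.5 ± 0.864 and 40.0 ± 7.78 (SD, n = 3). Cd27, a costimulatory receptor, fell with both, by 2.16 (± 0.17) and 0.55 (± 0.14) on the log2 scale. Tnfrsf21 (death receptor 6) rose with IL-1beta by 1.70 ± 0.13 and was not called with TNF-alpha (0.23 ± 0.13); the difference between them was -1.47 ± 0.13. Edar, the receptor of ectodysplasin, rose with IL-1beta by 2.92 ± 0.51 from 10 counts to 82. With TNF-alpha the smallest p after Fas belonged to Tnfrsf10b (a TRAIL receptor, 0.78 ± 0.08), Tnfrsf26 (1.64 ± 0.20) and Eda2r (0.77 ± 0.10).

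All 24 genes of the receptor signalling complex passed the filter, and at 72 h 10 rose with IL-1beta (19.3% of all genes) and 8 with TNF-alpha (17.8%), with none lower in either (19.7% and 18.3%). The medians were 0.155 and 0.135, against 0.0034 and -0.00801 over all genes. Traf1, an adaptor bound by TNF receptor 2, at 72 h stood at 0.496 ± 0.0658 CPM in control, 0.566 ± 0.138 with IL-1beta and 15.8 ± 1.02 with TNF-alpha (SD, n = 3). Its change with TNF-alpha was 3.92 ± 0.21, 4.58 ± 0.21, 5.05 ± 0.21 and 4.96 ± 0.22 at the 4 times, and with IL-1beta 2.54 ± 0.22, 2.52 ± 0.26, 1.69 ± 0.27 and 0.14 ± 0.36 (the last not called). Traf2, the adaptor shared by most receptors of the family, showed the reverse: 0.84 ± 0.08, 0.98 ± 0.09, 1.16 ± 0.09 and 1.30 ± 0.09 with IL-1beta, all called, against 0.43 ± 0.09 at 4 h (called) and 0.20 ± 0.09, 0.13 ± 0.09 and 0.15 ± 0.09 later (not called) with TNF-alpha. At 72 h the direct differences were 4.82 ± 0.21 for Traf1 and -1.16 ± 0.08 for Traf2. With TNF-alpha the 12 h value of Traf2 was called without TNF-alpha 12 h c, and those of 12 and 72 h were called with library totals (adjusted p = 0.0465 and 0.0158).

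Tnfaip3 (A20), an enzyme that edits ubiquitin and damps NF-kappaB signalling, rose by 1.58 ± 0.15 with IL-1beta and 2.52 ± 0.15 with TNF-alpha, from 8.65 ± 0.386 CPM to 25.7 ± 1.20 and 49.6 ± 5.87 (SD, n = 3). Its partner Tnip1 rose by 1.93 ± 0.13 and 1.60 ± 0.13, and the ubiquitin ligase Birc3 by 1.76 ± 0.11 and 1.60 ± 0.11. Ikbkg (NEMO), the regulatory subunit of the IKK complex, rose by 1.01 ± 0.05 with TNF-alpha at 72 h and was not called with IL-1beta (-0.03 ± 0.05). Cyld and Otulin, enzymes that remove ubiquitin chains, were not called with either cytokine at 72 h (-0.05 ± 0.06 and 0.11 ± 0.06 for Cyld, 0.19 ± 0.10 and 0.16 ± 0.10 for Otulin).

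Among genes of death signalling at 72 h, Bid, which links caspase-8 to mitochondria, rose by 0.69 ± 0.12 with IL-1beta and by 2.80 ± 0.11 with TNF-alpha, and Mlkl, the effector of necroptosis, by 1.72 ± 0.15 with TNF-alpha. With IL-1beta Mlkl was not called (0.36 ± 0.16, adjusted p = 0.0786), but was without IL-1beta 72 h b and without the low-count filter. The direct differences were 2.10 ± 0.10 for Bid and 1.35 ± 0.14 for Mlkl. Cflar, the inhibitor of caspase-8, rose by 0.71 ± 0.07 and 0.49 ± 0.07.

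The 5 genes of TNF shedding included the sheddase Adam17, which rose by 0.87 ± 0.06 with IL-1beta and 0.55 ± 0.06 with TNF-alpha at 72 h, and its partner Rhbdf2, which rose by 1.62 ± 0.09 and 0.83 ± 0.09. In all 3 of the 5 rose and 1 fell with each cytokine, where 19.3% of all genes rose and 19.7% fell with IL-1beta and 17.8% and 18.3% with TNF-alpha. The medians were 0.259 and 0.264, against 0.0034 and -0.00801 over all genes. The 1 that fell differed: Timp3, the inhibitor of that enzyme, with IL-1beta, and Rhbdf1 (by 0.34 ± 0.07) with TNF-alpha. Adam10 was called with both (0.26 ± 0.10 each), and each call was lost without any of 4 libraries. Timp3 stood at 815 ± 156 CPM in control, 122 ± 0.519 with IL-1beta and 888 ± 15.5 with TNF-alpha (SD, n = 3). Its change with IL-1beta was -0.20 ± 0.13, -0.38 ± 0.13, -1.17 ± 0.13 and -2.74 ± 0.14 at the 4 times, of which the first was not called and the second was lost without control 12 h a or b or IL-1beta 12 h a or b. With TNF-alpha the 72 h value was 0.12 ± 0.13 (not called).

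**Figure D4:**
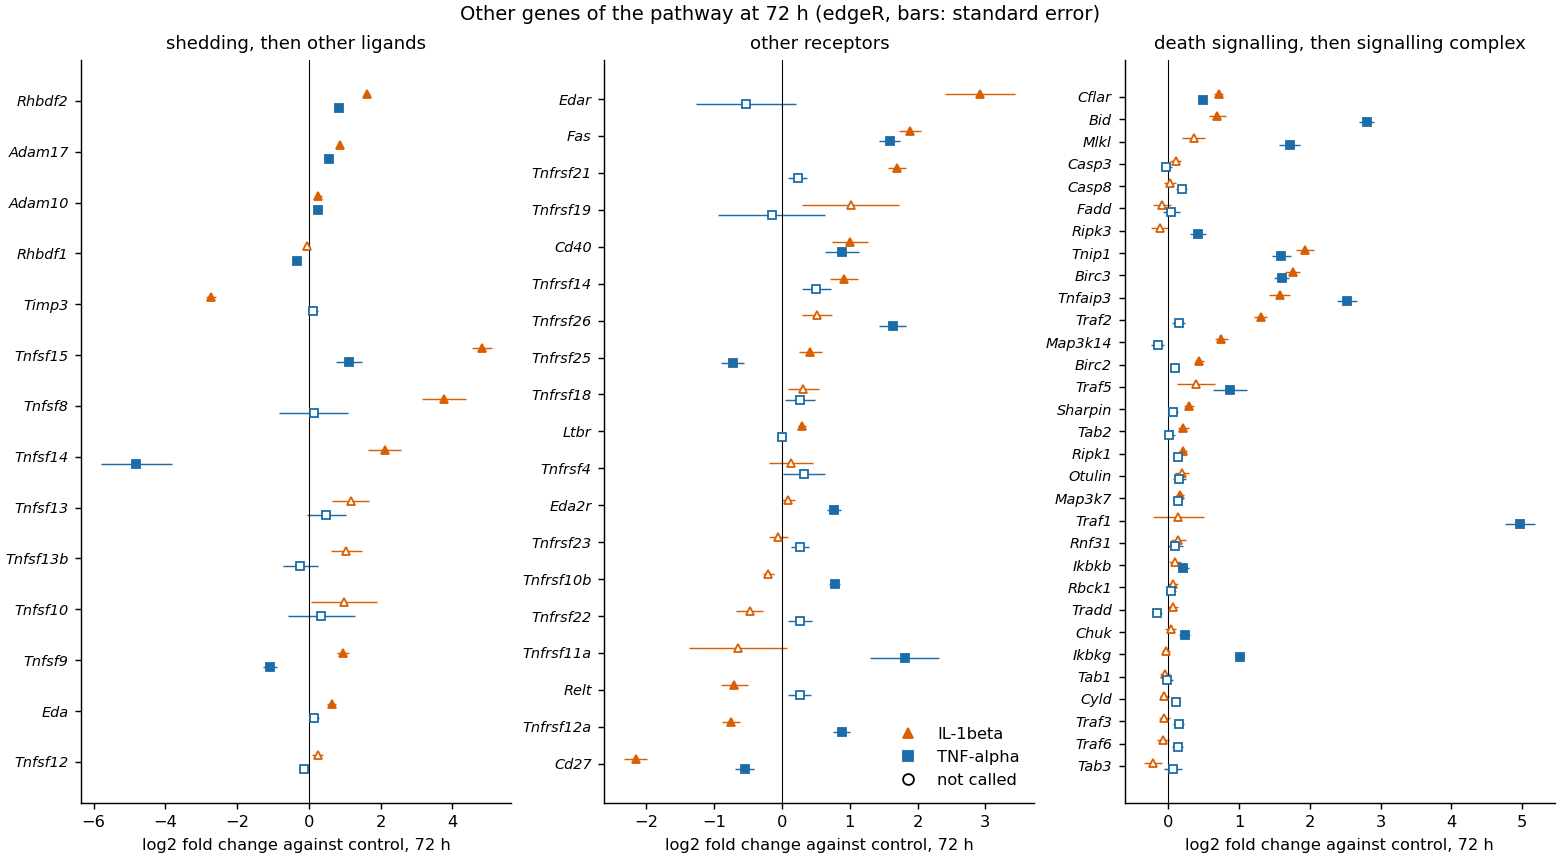
Log2 fold change against control at 72 h (horizontal axes) of the other ligands and shedding genes (left), the other receptors (middle) and the signalling complex and death genes (right); orange triangles are IL-1beta, blue squares TNF-alpha, bars are standard errors from edgeR, and open symbols were not called. Tnfsf15 lies at 4.83 with IL-1beta, Traf1 at 4.96 with TNF-alpha and 0.14 with IL-1beta, and Timp3 at -2.74 with IL-1beta; the Tnfsf14 point for TNF-alpha rests on 1 count.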

How the data were processed

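Tissue-engineered cartilage was profiled by RNA sequencing after ribosomal RNA depletion, per the labels' protocols. The authors deposited raw counts per gene in 1 table of 39 mRNA libraries. Build mm10 and the tools STAR, featureCounts, cutadapt and Trimmomatic come from the submitters' processing notes, which give neither versions nor roles. Strand setting and annotation: not given in the sources used here. Of the table, the column of control 0 h b and 2199 nameless lines (15490 counts) were left out.

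Counts were tested with edgeR 4.0.16 (R 4.3.3, limma 3.58.1) by the quasi-likelihood F test in 1 fit over 38 libraries with a coefficient per group. TMM scaling (factors 0.864 to 1.12) and filterByExpr were used, which kept 99.905% of the counts. Benjamini-Hochberg adjusted p under 0.05 over 18857 genes were called. The common biological coefficient of variation was 8.26%. Standard errors are the absolute log2 fold change divided by the root of F, and 95% intervals are normal approximations around it. Counting intervals are exact binomial and cover counting error only. Ratios used log2 CPM with a prior count of 2 and an exact permutation test. No libraries of a group were copies (lowest chi-square per degree of freedom 3.39). No pairing of libraries by the letters a, b and c was detected. The test was run on simulated counts with a single dispersion for all genes and changes in IL-1beta 4 h alone. That simulation does not cover spread that differs between genes, or near-absent controls like those of Tnf and Tnfsf4.

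The members and lists were chosen with earlier results of these data known. Named were all 7 members, from each list at least the 4 genes of smallest p at 72 h and some others, and the 3 most similar genes of each member (mean CPM of at least 1, without predicted genes or pseudogenes). Not every list gene that is counted is named. Lists are described by counts and medians. For death signalling, 1 gene and the counts over the list are not reported here. Alternatives were DESeq2 1.42.0, its size factors in edgeR, library totals, no filter, a replicate block, only the libraries compared, each library left out, all 39 libraries, and prior counts of 0.5 and 5. Motifs were searched in RefSeq promoter windows (GRCm38.p6). Small RNA counts, also deposited by the authors, were not used.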

Additional observations from a re-analysis of the deposited data

Results flagged for a closer look

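The effect of a cytokine differed between times by the interaction test for several members (edgeR, adjusted over all genes). Among the 4 times the IL-1beta effect differed for Tnfsf11 (adjusted p = 1.52e-07), Tnfrsf1a (2.21e-06), Tnfrsf9 (5.29e-07) and Tnfrsf11b (1.93e-13), and the TNF-alpha effect for Tnfsf11 (6.17e-08), Tnfrsf1a (0.00543), Tnfrsf1b (2.45e-05) and Tnfrsf9 (9.46e-05). The TNF-alpha tests among the 4 times hold the 4 h comparison, which spans the parting of libraries described above. From 4 to 72 h the log2 effect of IL-1beta moved by 2.20 for Tnfsf11, 0.55 for Tnfrsf1a, 2.45 for Tnfrsf9 and -2.12 for Tnfrsf11b. From 12 to 72 h that of TNF-alpha moved by 0.38 for Tnfrsf1a, 0.41 for Tnfrsf1b and 2.06 for Tnfrsf9.

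The column left out, control 0 h b, held 12 counts on the line named Tnf, 12 on that named Tnfsf4 and 221 on that named Tnfrsf9, out of 220180 counts in all. The other 0 h controls held 0 and 1, 6 and 4, and 25 and 25. Its lines appear out of register, so these are not read as levels of the genes.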

How the results depend on the processing

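No member result changed its call or direction with the DESeq2 size factors or the replicate block (133 of 133 kept). No pairing by letter was detected: over 36 same-letter pairs the deviations from group means correlated at -0.106 to 0.096 and none exceeded 0.1. Pairs of unlike letters were not compared, and the labels do not say what the letters share. With the block 5, 6, 6 and 5 members were called with IL-1beta and 5, 5, 4 and 4 with TNF-alpha, as without it. Of the 65 calls of members in the 12 comparisons with a cytokine, 56 were kept without each library in turn and 9 were lost without at least 1, as given above. The share of calls kept in this way over all genes was not computed, so the count does not set the members apart. Library totals moved the median of all genes by up to 0.124.

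Other counts of members called moved by over 1.5 times in 2 settings. With all 39 libraries, where 18534 genes were tested, calls over all genes fell as well. Brackets give these calls, then those of the main fit over 18857 genes. Members called were 3 for IL-1beta at 4 h (2848, 6159) and 3 for TNF-alpha at 12 h (2331, 5361). For TNF-alpha against IL-1beta they were 2 (685, 2332), 1 (639, 1995) and 3 (1865, 3790) at 4, 12 and 24 h. The IL-1beta effect from 4 to 72 h had 2 (2529, 5775), and the TNF-alpha effect from 12 to 72 h had 0 (291, 1611). Among times, the IL-1beta effect differed for 2 (2994, 7299) and the TNF-alpha effect for 2 (739, 3618). That setting includes the left-out column, and its part in these lower counts was not tested. With only the libraries compared, 3 members were called for TNF-alpha against IL-1beta at 12 h (908 of 15703 genes, 1995 of 18857 in the main fit). The TNF-alpha effect from 12 to 72 h had 1 (1095 of 17369 genes, 1611 of 18857 in the main fit). Fewer libraries enter those fits, and the cause of the lower counts was not tested.

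Differences that were not called in the main fit reversed as follows. The cause was not tested. With library totals Tnfrsf1a with IL-1beta at 4 h became -0.0446, Tnfrsf11b in control 24 h against 12 h 0.0205, and Tnfsf4 in the TNF-alpha effect from 12 to 72 h 0.0241. The last was 0.0991 with DESeq2. With all 39 libraries Tnfrsf9 in control 4 h against 0 h became -5.04, and was called. That setting adds the left-out column, which held 221 counts on the line named Tnfrsf9 against 25 and 25 in the other 0 h controls. Without single libraries the main-fit difference ranged from -0.306 to 0.518. Likewise Tnfrsf11b with TNF-alpha at 12 h ranged from -0.0551 to 0.0893, Tnfrsf1b between cytokines at 12 h from -0.0252 to 0.15, Tnf in control 4 h against 0 h from -1.14 to 2.57 and Tnfsf4 in control 24 h against 12 h from -0.59 to 0.205. For Tnfsf4 the IL-1beta effect from 4 to 72 h ranged from -0.0158 to 3.50, and for Tnf and Tnfsf4 the TNF-alpha effect from 12 to 72 h from -1.57 to 2.01 and from -0.61 to 2.77. Cd40 between cytokines at 72 h ranged from -0.350 to 0.0192, Traf1 with IL-1beta at 72 h from -0.0327 to 0.266 and Timp3 with TNF-alpha at 72 h from -0.0110 to 0.266.

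Depth limits Tnf and Tnfsf4 most, whose control groups held 1 to 21 counts. The ratios kept their direction and overlap with prior counts of 0.5 and 5.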

Other observations

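The binding partners of the members that rose were measured in the same libraries. OX40 (Tnfrsf4), the receptor of OX40 ligand, stood at 0.345 to 1.19 CPM in the 38 libraries and was not called with either cytokine at any of the 4 times (at 72 h 0.13 ± 0.33 with IL-1beta and 0.33 ± 0.31 with TNF-alpha). RANK (Tnfrsf11a), the signalling receptor of RANKL, was also low, with a highest value of 1.28 CPM. It rose with TNF-alpha by 1.51 ± 0.54 at 4 h, 1.59 ± 0.61 at 12 h and 1.81 ± 0.51 at 72 h, and was not called at 24 h (1.22 ± 0.54). These calls rest on 25 to 27, 11 to 32 and 15 to 77 counts a group, and each was lost without at least 1 library: 4 libraries at 4 h (control a and b, TNF-alpha a and c), 4 at 12 h (control a and b, TNF-alpha b and c) and control b at 72 h (adjusted p = 0.0538). With DESeq2 the 4 h and 12 h differences were not called (0.0561 and 0.0650). The size of the difference also rested on single libraries: it became 2.21 at 12 h without control c, 2.47 at 72 h without control a, and 2.19 at 24 h without control a, where it was called.

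CD137 (Tnfrsf9) and its ligand Tnfsf9 stood highest in the same group, IL-1beta at 72 h, at 26.9 ± 3.85 CPM and 6.90 ± 0.629 CPM (SD, n = 3). With TNF-alpha at 72 h the receptor stood at 10.4 ± 0.737 CPM, above control, and the ligand at 1.64 ± 0.502 CPM, below control (3.61 ± 0.399).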
